A study of Drosophila melanogaster with 2 samples.

Results

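Genes of the Notch signalling pathway, 10 in all, were read for peaks of the protein encoded by CG5953 in fruit fly (Drosophila melanogaster) embryos. The 10 genes were listed by symbol as pathway members, by a rule that uses no measured value, from 13968 protein-coding genes among 17466 genes of the Ensembl annotation used. They were N, Dl, Ser, fng, neur, bib, numb, Su(H), H and mam. All 10 were found, Dl under the name Delta. Their genes are long, with a median of 22.8 kb against 2.16 kb for all protein-coding genes.

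The transgenic flies carried an insertion that expresses CG5953 fused to enhanced green fluorescent protein, and whole embryos 0 to 24 h old were used. Chromatin was sonicated to fragments of 200 to 800 bp, and an antibody against the fluorescent protein was used to recover the tagged protein together with bound DNA, which was sequenced (ChIP-seq). The labels' description names this antibody, while their antibody field gives CG5953. There was 1 group, with biological replicates 1 and 2, and control libraries were not analysed here, so nothing was compared between conditions. In whole embryos a peak in few cells and a weak peak in many cells cannot be told apart.

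Notch is a receptor on the cell surface that is activated by ligands on a neighbouring cell. Activation releases its intracellular domain, which enters the nucleus and joins a DNA-binding protein and a coactivator at target genes. In the fly embryo the pathway limits how many cells of the neurogenic ectoderm become neural precursors. Loss of several of its genes, though not of all, gives too much nervous tissue, from which the name neurogenic genes comes.

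The deposited peak lists were on dm6. Per the texts deposited beside the samples, peaks were ranked and then thresholded by IDR, the irreproducible discovery rate. It is low where a peak ranks alike and high in the lists compared. The main set was the conservative set of both libraries, with 3015 peaks on the chromosome arms. A second set from both libraries (here the optimal set) and each replicate's own thresholded list were read as well. The signal is the authors' value per peak, with no unit stated, and the peak lists hold no reads, so the depth behind each value is unknown. All 11 peaks described here had the width of 296 bp that 92.3% of conservative peaks share, so a position within a peak is only as fine as that width and the fragments allow.

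Of the 10 genes, 5 had a conservative peak summit in the gene or within 5 kb of it (50%; Clopper-Pearson 95% interval 18.7 to 81.3%, for the number of genes counted only). They were N, neur, bib, numb and mam, with 11 peaks in all, of which mam held 5. Dl, Ser, fng, Su(H) and H had none. Among all protein-coding genes 34.8% had such a peak, and this share rose with gene length. It was 30.3% for genes under 5 kb, 45.2% for genes of 5 to 20 kb and 55.5% for genes of 20 kb or more. The members' counts in these classes were 0 of 1, 2 of 3 and 3 of 6, so beside genes of like length their count lay near the background. Per length of DNA the members held 0.320 conservative peaks per 10 kb of gene and flanks, and all protein-coding genes held 0.311.

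The sequences at the strongest peaks and at the peak nearest to a gene start, that of bib, are shown here because they differ in composition. Each is 201 bases centred on the summit, in the Release 6 genome sequence of RefSeq (dm6 coordinates), with runs of at least 6 bases of A and T in capitals. Peaks of mam are described without sequence.
N, intron 5 (chrX:3162416-3162616, plus strand): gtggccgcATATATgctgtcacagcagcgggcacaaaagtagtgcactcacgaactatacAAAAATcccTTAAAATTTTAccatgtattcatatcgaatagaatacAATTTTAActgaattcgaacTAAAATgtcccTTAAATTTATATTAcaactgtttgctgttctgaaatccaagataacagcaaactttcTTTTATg
neur, intron 1 (chr3R:9031921-9032121, plus strand): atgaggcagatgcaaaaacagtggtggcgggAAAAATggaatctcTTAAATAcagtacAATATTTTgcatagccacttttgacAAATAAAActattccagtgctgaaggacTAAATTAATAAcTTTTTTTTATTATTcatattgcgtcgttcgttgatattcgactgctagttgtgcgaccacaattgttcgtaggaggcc
numb, internal start (chr2L:9449539-9449739, plus strand): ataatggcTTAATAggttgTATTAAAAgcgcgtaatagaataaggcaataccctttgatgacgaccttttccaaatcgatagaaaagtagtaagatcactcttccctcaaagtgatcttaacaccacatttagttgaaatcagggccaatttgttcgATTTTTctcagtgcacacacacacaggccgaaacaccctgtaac
bib, promoter (chr2L:9984543-9984743, plus strand): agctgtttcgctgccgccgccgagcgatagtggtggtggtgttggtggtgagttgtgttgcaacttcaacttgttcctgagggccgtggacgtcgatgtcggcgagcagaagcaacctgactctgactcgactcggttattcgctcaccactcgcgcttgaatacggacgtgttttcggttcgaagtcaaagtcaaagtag

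The N and neur sequences held 57 and 54 bases in A and T runs, with a longest run of 14 bases in each. The numb sequence held 20 such bases, and the bib promoter sequence held none. The strongest peaks of mam, with signals of 150 and 166, held more than the N and neur peaks. They had 70 and 75 such bases, with longest runs of 19 and 12. Over the 11 peaks the median was 20 such bases with a longest run of 8, below the median of 39 with a longest run of 11 over all conservative peaks. In the central 101 bases the share of G and C was 23.8% at the N peak and 46.0% in its flanks 500 bp away. It was 27.7% at the neur peak against 35.6% in the flanks, 38.6% against 40.1% at numb and 54.5% against 47.5% at the bib promoter. Of the 11 peaks, 6 were poorer in G and C than their flanks, against 63.2% of all conservative peaks. The median share of G and C over the 11 was 35.6%, beside 36.6% over all conservative peaks.

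**Figure D1:**
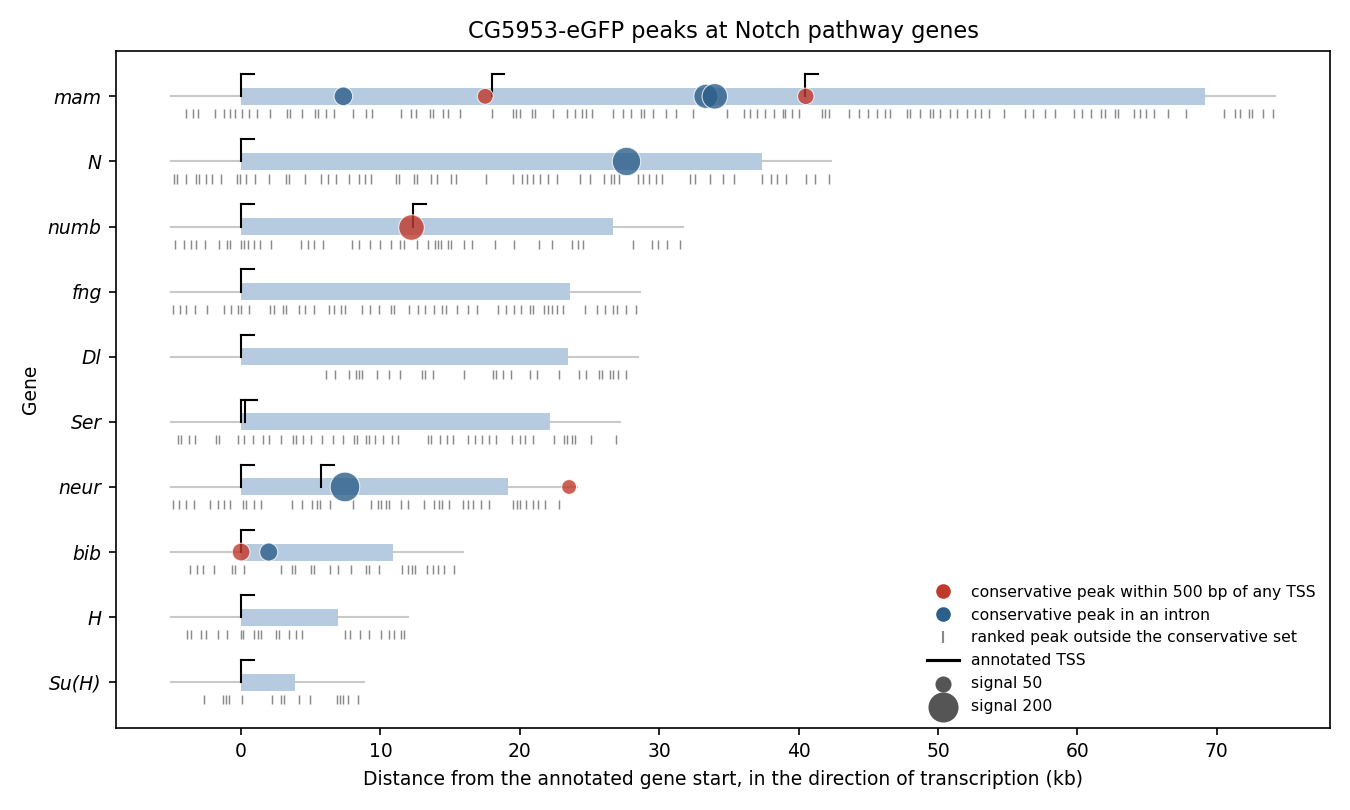
Peaks along the 10 Notch pathway genes, with the distance from the annotated gene start in kb on the horizontal axis and 1 row per gene; bars are gene bodies, thin lines the 5 kb flanks, and circle area follows the signal. The 11 conservative peaks fall on 5 genes, while ranked peaks outside the set (ticks) lie along all 10, with none near the start of Dl.

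N encodes the Notch receptor itself (FBgn0004647; X, 3134870 to 3172221, plus strand). It held a single conservative peak, at 3162368 to 3162663, with a signal of 206 that ranked 285 of 3015. The summit lay in intron 5, an intron of 4245 bp present in both annotated transcripts, 27.6 kb downstream of the only annotated transcription start site (TSS). The nearest TSS was that of CG18508, 10.6 kb away, and the nearest other conservative peak was 43.5 kb away. The replicates gave signals of 146.7 and 66.6, so replicate 1 was 2.20 times as high, and the peak passed in both replicates' own lists.

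The promoter of N did not pass the threshold. A ranked peak lay 330 bp upstream of its TSS with a signal of 45.3, from 26.7 in replicate 1 and 22.1 in replicate 2, and a global IDR of 0.0294. The thresholded lists hold peaks with an IDR of 0.01 or less.

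Neither ligand gene had a peak in any thresholded list. Delta and Serrate are the transmembrane ligands of Notch, encoded by Dl (FBgn0000463; 3R, 19302731 to 19326217, minus strand) and Ser (FBgn0004197; 3R, 27172090 to 27194267, minus strand). The strongest ranked peak at Dl had a signal of 45.7 and an IDR of 0.315, lay in a coding exon 6101 bp from the TSS, and had a signal of 21.4 in replicate 2 with no matching peak in replicate 1. The strongest at Ser had a signal of 36.2 and an IDR of 0.278, with 19.5 in replicate 1 and 14.1 in replicate 2. It lay in an intron 1759 bp from a Ser TSS. By their highest ranked signal, Ser lay above 9.90% and Dl above 24.9% of the 1020 protein-coding genes of 20 kb or more. The list behind the Dl value lacks ranked peaks over part of the gene, as described below. Within their own length classes, fng lay above 38.0%, H above 50.7% and Su(H) above 65.8% of genes. The members with a conservative peak lay above 70.2% (bib) to 93.3% (neur).

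The start of Dl lay in a stretch without any ranked peak in replicate 2 and in both ranked lists of the libraries together. In replicate 2 this stretch was 18.2 kb long and covered 11.1 kb of the Dl gene and its flanks, TSS included. Replicate 1 had 14 ranked peaks in it, the highest with a signal of 22.5. Stretches over 10 kb without a ranked peak were common: 873 in replicate 1 and 1074 in replicate 2 on the large arms, or 17.7% and 20.2% of their length. The lists do not say why, so they do not show whether the signal at the Dl start was low in replicate 2.

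fng encodes Fringe, a glycosyltransferase of the Golgi that changes which ligand Notch answers to (FBgn0011591; 3L, 20925891 to 20949512, minus strand). It had no conservative peak, but its ranked peaks came close to the threshold. One, in an intron 5214 bp from the fng TSS, had a signal of 53.3 and an IDR of 0.0105, with 30.5 and 25.6 in replicates 1 and 2. Another had a signal of 54.4 and an IDR of 0.0122, with 27.4 and 26.2 in the replicates, and lay nearer to the TSS of CG10589, 2098 bp away.

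neur encodes Neuralized, the ubiquitin ligase that drives endocytosis of Delta in the cell that sends the signal (FBgn0002932; 3R, 9020348 to 9039471, minus strand). It carried the highest signal of the 11 peaks. That peak, at 9031873 to 9032168, had a signal of 225 and ranked 236 of 3015. Replicate 1 gave 119.5 and replicate 2 gave 102, a ratio of 1.17, and both own lists held it. The summit lay in intron 1 of all 5 annotated transcripts, 1710 bp downstream of the internal TSS.

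The second peak counted for neur was the weakest of the 11. It lay 4410 bp past the end of the gene, at 9015790 to 9016085, with a signal of 55.9 and a rank of 2718. Its summit was 492 bp downstream of the TSS of CG11986, and neither replicate's own list held it, with signals of 31.6 and 30.7.

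bib encodes Big brain, a channel-like membrane protein of the aquaporin family needed for Notch signalling in neurogenesis (FBgn0000180; 2L, 9984645 to 9995538, plus strand). Its first peak, at 9984495 to 9984790, had its summit 2 bp upstream of the only bib TSS and also within 500 bp of the TSS of lncRNA:CR13130. The signal was 80.9, from 33.9 in replicate 1 and 40.8 in replicate 2. Neither own list held this peak, so the call at the bib start rests on both libraries together. The other peak, at 9986478 to 9986773, lay 1981 bp downstream of the TSS in intron 1, which is 1642 bp long. Its signal was 83.7, from 44.1 and 37.4 in replicates 1 and 2, and only replicate 1's own list held it.

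numb encodes an endocytic adaptor that is handed to 1 daughter cell at division and holds Notch back there (FBgn0002973; 2L, 9437469 to 9464184, plus strand). Its single peak, at 9449491 to 9449786, had a signal of 167 and ranked 421 of 3015. The summit lay 191 bp upstream of an internal TSS, which is 12.4 kb into the gene, and within intron 2 of 1 other transcript, an intron of 13457 bp. The replicates gave 122 and 52.9. Both own lists held it, and its ratio of 2.30 between the replicates was the largest of the 11, a ratio that 2.29% of all conservative peaks exceeded.

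Su(H) encodes Suppressor of Hairless, the DNA-binding protein that the Notch intracellular domain joins (FBgn0004837; 2L, 15039488 to 15043334, plus strand). It had no conservative peak and 1 peak in replicate 1's own list, at 15036654 to 15036943 with a signal of 33.3. The matching ranked peak of both libraries had a signal of 56.6 and an IDR of 0.0202, and replicate 2 gave 22.3 there. It lay 1337 bp downstream of the TSS of yellow-c, upstream of Su(H).

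H encodes Hairless, which binds Su(H) and recruits corepressors when Notch is inactive (FBgn0001169; 3R, 20621938 to 20628915, plus strand). Its strongest ranked peak missed the threshold narrowly, with an IDR of 0.0103 and a signal of 57.3. The replicates gave 26.3 and 28.4. The summit lay in a coding exon, 1303 bp downstream of the TSS of Pi3K92E, past the end of H. The signals of this peak, of the Su(H) peak and of a mam peak with 57.8 were higher than the 55.9 of the neur peak that passed with an IDR of 0.00473, where the IDR is set by ranks in both replicates and not by the joint signal.

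mam encodes Mastermind, the coactivator that completes the complex of Su(H) and the Notch intracellular domain (FBgn0002643; 2R, 13991203 to 14060356, plus strand). It is the longest of the 10 genes, at 69.2 kb, with 3 annotated TSS, and its 5 peaks lay between 7.34 kb and 40.5 kb from its start. The strongest were a pair 0.634 kb apart in an intron of 27528 bp. The first of the pair, at 14024406 to 14024701, had a signal of 150, from 80.4 and 70.5 in replicates 1 and 2. The second, at 14025040 to 14025335, had a signal of 166, from 102 and 60.5. Both own lists held both peaks, and the nearest TSS, that of CG18371, was 4066 and 3432 bp away.

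The other 3 peaks of mam were weaker. One lay in intron 2, 7335 bp from the first TSS, at 13998390 to 13998685, with a signal of 89.0, from 40.8 and 45.7, and only replicate 2's own list held it. The remaining peaks lay at the internal gene starts. One was 481 bp upstream of the second TSS, with a signal of 64.3 from 29.7 and 35.9, and was the only one of the 11 that the optimal set lacked. One was 55 bp downstream of the last TSS, with a signal of 69.4 from 27.7 and 41.7. Neither own list held these promoter peaks, and no conservative peak lay within 500 bp of the first mam TSS.

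Only 3 members, bib, numb and mam, had a conservative summit within 500 bp of a TSS of their own (30%; Clopper-Pearson 95% interval 6.67 to 65.2%). Among all protein-coding genes 11.3% did. The share depended on the number of annotated TSS per gene and was 8.13% with 1 TSS and 20% with 2 or more. The members' counts were 1 of 6 and 2 of 4. With either replicate's own list alone 1 of the 10 was left, numb, whose peak stood at an internal TSS. Those lists are smaller, with 1975 peaks on the chromosome arms in replicate 1 and 1660 in replicate 2. The share of all protein-coding genes was not taken for them, so this drop has no background beside it.

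By place in the gene, 6 of the 11 summits lay in introns away from any TSS (54.5%; Clopper-Pearson 95% interval 23.4 to 83.3%), against 35.8% of all conservative peaks. The other 5 lay within 500 bp of a TSS (45.5%, against 45.3% of all), 1 of them that of CG11986. Away from any TSS, none lay in a coding exon, a UTR or between genes. The 5 summits within 500 bp of a TSS were not sorted by exon, so any overlap with exons was not read. Those at numb and at the internal starts of mam also lay within introns of other transcripts of the same gene. The interval for introns includes the share of all peaks. The sets are also unlike, since the 11 peaks were taken in or near long genes. Of all conservative peaks 13.6% lay between genes, away from any TSS.

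Replicate 1 gave the higher signal at 7 of the 11, and at 60.4% of all 2990 conservative peaks with a signal in both. The ratio of replicate 1 to replicate 2 ran from 0.664 to 2.30 with a median of 1.14, beside a median of 1.09 and a range of 0.620 to 1.98 from the 5th to the 95th percentile of all conservative peaks. The N and numb peaks lay above that range, both higher in replicate 1. The 5 peaks with signals of 150 and more, at neur, N, numb and mam, were the ones in both own lists (45.5%, against 39.2% of all conservative peaks). In neither own list were 4 of the 11 (36.4%, against 32.6%).

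**Figure D2:**
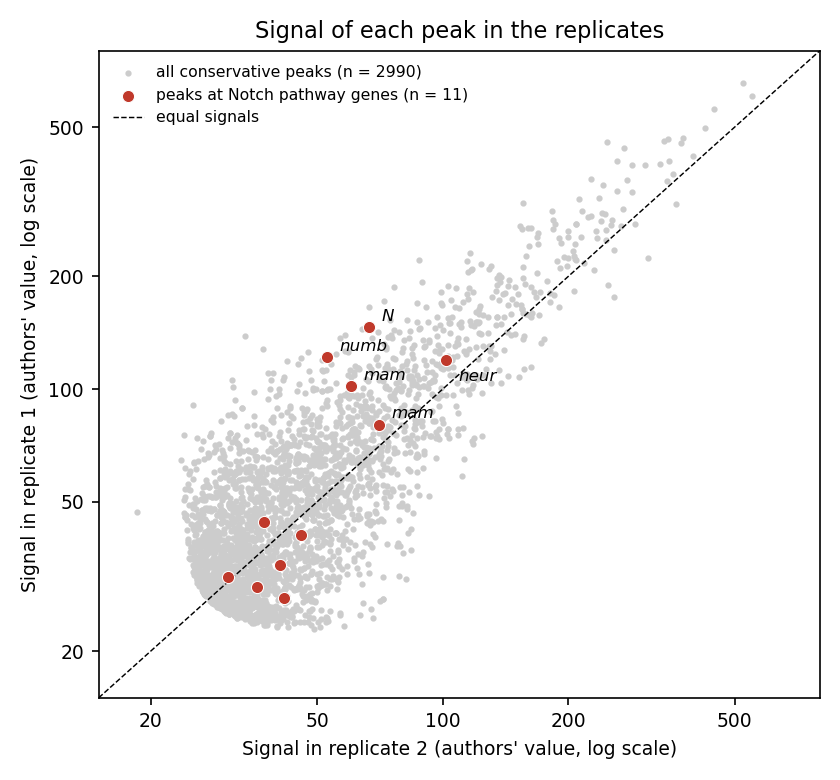
Signal of each peak in replicate 1 against replicate 2 (authors' value, both axes logarithmic), for 2990 conservative peaks in grey and the 11 peaks at Notch pathway genes in red; the dashed line marks equal signals. The 5 named peaks stand apart from the other 6 in replicate 1, at 80.4 and above against 44.1 and below.

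The 11 signals ran from 55.9 to 225 with a median of 89.0, and 7 lay at or above the median of all conservative peaks, 83.0. The lower and upper quartiles of all were 64.6 and 124. Read over the other lists, 5 of 10 members had a peak in the optimal set (37.5% of all protein-coding genes), 6 of 10 in replicate 1's own list (26.5%) and 4 of 10 in replicate 2's own list (23.8%). Replicate 1's list added Su(H), and replicate 2's list lacked bib. The shares of protein-coding genes beside these counts are over genes of all lengths and were not matched to the members' lengths.

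Below the thresholds, ranked peaks covered all 10 genes, as they did 96.5% of protein-coding genes. The members held 465 of them, 13.5 per 10 kb, beside 12.04 per 10 kb over all protein-coding genes. The plot of ranked signals shows a gap between the top peak and the rest at neur, N and numb: at N the peak of 206 was followed by one of 50.4, at numb 167 by 52.1, and at neur 225 by 55.9. At bib, signals of 83.7 and 80.9 were followed by 45.6. At H, Su(H), fng, Dl and Ser the highest ranked signals were 57.3, 56.6, 54.4, 45.7 and 36.2.

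**Figure D3:**
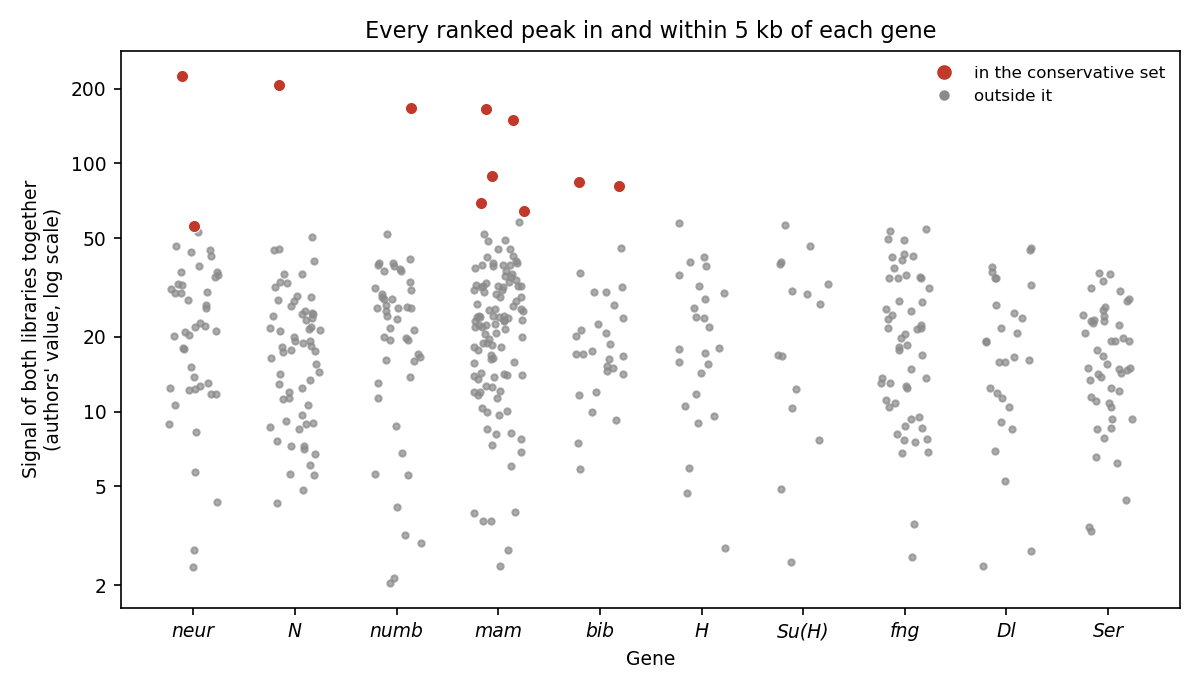
Signal of every ranked peak of both libraries together (authors' value, log scale) in and within 5 kb of each gene, with genes ordered by their highest value and points spread sideways only to be seen; red points are in the conservative set. The highest values fall from 225 at neur to 36.2 at Ser.

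The following 7 words were searched on both strands and are given with the factor known to bind them where one is named: GAGAG (GAGA factor), GCCAT (Pho), CAGGTA (Zelda), TATCGATA (DREF), GTGGGAA and GTGAGAA (Su(H)), and TGCGCA. Within 50 bp of the summits, 1 of the 11 peaks held any of them, a GCCAT at the second of the paired mam peaks. The shares of all conservative peaks with a match in that window were 12.4% for GAGAG, 15.6% for GCCAT, 1.69% for CAGGTA, 1.06% for TATCGATA, 0.995% for GTGGGAA, 0.862% for GTGAGAA and 2.16% for TGCGCA. Within 100 bp, GCCAT was found at 4 of the 11 and GAGAG at 1, against 29.0% and 26.7% of all conservative peaks, and the other words at none. The share of all conservative peaks with any of the 7 words was not taken, so the count for any word has no background beside it. A match describes letters in a window, not a bound site.

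A longer list of 58 pathway genes was read in the same way, 48 of them beside the 10. Of the 58, 28 had a conservative peak in the gene or within 5 kb (48.3%, against 34.8% of protein-coding genes), from 32 distinct peaks. Of the 48, 23 had one (47.9%). The 34.8% is over genes of all lengths and was not matched to the lengths of the 58. Of the 28, 8 were genes of the Enhancer of split complex, counted from 5 distinct peaks. The count of 28 depended on the flanks. It was 18 of 58 with 2 kb on each side and 7 of 58 with the gene body alone. Most of the 28 thus had their peak in the flanks. The share of all protein-coding genes was taken with 5 kb flanks only, so 34.8% is no measure for these smaller windows. Summits within 500 bp of an own TSS were found at 8 of 58 (13.8%, against 11.3%), among them 5 of the 48, aph-1, rumi, l(2)gd1, gro and E(spl)m3-HLH.

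Of 5 glycosylation genes that act on the receptor 2 had a peak (40%, against 34.8% of protein-coding genes). The stronger of the peaks at rumi, a protein O-glucosyltransferase, lay 57 bp upstream of its TSS with a signal of 124, from 53.1 and 73.5. The weaker, with a signal of 57.6 from 24.3 and 33.5, lay 3011 bp from the rumi TSS in an intron, 1007 bp from the TSS of CG7029, and neither own list held it. The peak of 245 near O-fut1, the O-fucosyltransferase of Notch, lay 99 bp from the TSS of CG13018. Of 7 protease genes 4 had a peak (57.1%, against 34.8%). A summit 175 bp upstream of aph-1, a subunit of gamma-secretase, had a signal of 85.6, from 57.3 and 40.8. A second summit, 489 bp from the aph-1 TSS and 79 bp from that of Snx21, had 77.1, from 29.2 and 55.9. Kul, kuz and Tace encode metalloproteases of the ADAM family. The peak of 790 counted for Kul lay 105 bp from the TSS of CIA30, the peak of 98.2 counted for kuz 140 bp from that of B4, and the peak of 70.8 counted for Tace 37 bp from that of CG11504.

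Of 16 genes of endocytosis and ubiquitin, 8 had a peak (50%, against 34.8% of protein-coding genes), neur, bib and numb included. The strongest was at l(2)gd1, which acts in endosomal sorting of Notch, 93 bp upstream of the TSS with a signal of 316, from 164 and 155. At aux, the auxilin gene needed for ligand endocytosis, a pair of intronic peaks had signals of 174 and 103. The peak of 75.5 near dx, which encodes the ubiquitin ligase Deltex, lay 20 bp from the TSS of RpL7A. Brd and Ocho, small inhibitors of Neuralized, shared 1 peak of 73.2 that lay 37 bp from the TSS of lncRNA:marge. Of the other neurogenic genes 2 of 4 had a peak (50%, against 34.8%), of 93.0 near pcx, 107 bp from the TSS of Vinc, and of 96.5 near uif, 720 bp from that of Sumo.

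Of 8 nuclear genes 3 had a peak (37.5%, against 34.8% of protein-coding genes): mam, gro and nej. The promoter of gro, which encodes the corepressor Groucho, carried a higher signal than any peak of the 10 genes, 299 at 3R, 26042441 to 26042585, from 138 and 156, with the summit 108 bp upstream of a gro TSS. A peak of 66.4 lay 625 bp downstream, in an intron. The peak of 226 near nej, the CBP acetyltransferase gene, lay 726 bp from its own TSS and 397 bp from that of lncRNA:CR42657.

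The targets of Notch were read at the Enhancer of split complex beside gro. The 12 genes of the complex encode mostly repressors of the HLH family and Bearded family proteins, with E(spl)m1 (Kaz-m1 in the annotation) in neither family. Of the 12, 8 counted as having a peak (66.7%, against 34.8% of protein-coding genes), but from only 5 distinct peaks, since the genes are small and their flanks overlap, and 2 of the 5 lay in gro. Of the 15 target genes listed, the remaining Hey, dpn and Him had none. One peak lay between E(spl)mbeta-HLH and E(spl)malpha-BFM, 1813 bp upstream of the latter, with a signal of 118 from 69.3 and 50.2, and both own lists held it. A pair lay upstream of E(spl)m3-HLH, with signals of 76.5 and 64.0, and neither own list held them. The nearer summit was 397 bp from the E(spl)m3-HLH TSS and 350 bp from that of lncRNA:CR43644. E(spl)mdelta-HLH, E(spl)mgamma-HLH, E(spl)m5-HLH and E(spl)m6-BFM had none.

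**Figure D4:**
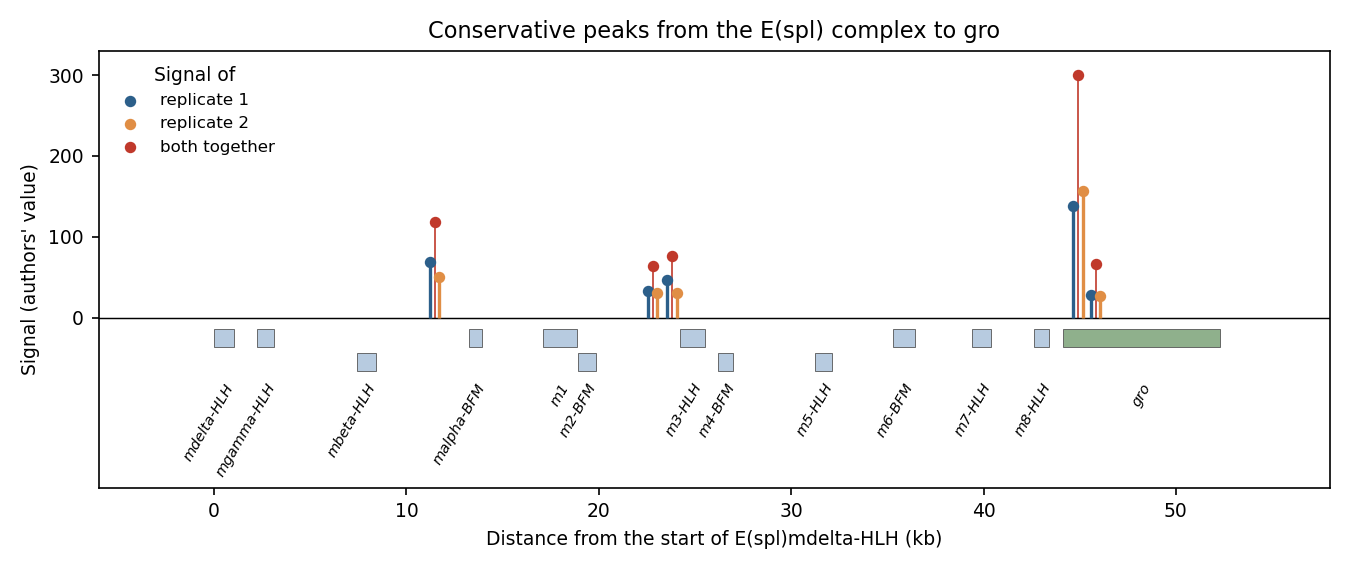
Signal (authors' value) of the 5 conservative peaks between the start of E(spl)mdelta-HLH and the end of gro, by distance in kb, in each replicate and in both together; replicate points are set slightly to the side, and boxes below are genes, with the lower row for the minus strand. The gro promoter stands at 299, and the peaks within the complex at 118, 64.0 and 76.5.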

How the data were processed

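The 2 libraries were ChIP-seq of CG5953-eGFP. The assembly is dm6, per the labels. Which aligner and peak caller the authors used is not given in the sources used here. Each deposited list gives a signal per peak, the authors' own value, in a unit the files do not state. The deposited score rescales the IDR to at most 1000, and thresholded peaks scored 830 or more. The ranked lists as deposited hold the −log10 of the global IDR, given here as the IDR. The peak lists hold no counts, so the depth is unknown. In the ranked lists, 8 columns of per-sample values were not used.

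Summits were compared with Ensembl's annotation of BDGP6 (release 115), without transposable elements, pseudogenes and unnamed mature miRNA entries, with Python 3.11.15, numpy 2.4.6, pandas 2.3.3, scipy 1.17.1 and matplotlib 3.10.9. A summit within 500 bp of a TSS counted as promoter. Replicate signals are those of the strongest peak in a replicate's ranked list that overlaps by at least 1 bp. All 58 pathway symbols were matched, among them Dl, nct, Bob and E(spl)m1 by gene ID, since the annotation names them Delta, Nct, BobA and Kaz-m1. Named genes are the 10 members, the listed pathway genes with a peak, the genes with a TSS nearest to or within 500 bp of a described peak, ranked peaks of the members included, and CG5953. Pathway genes without a peak were named after their values were seen. The rule for the members uses no measured value, but members, lists and words were proposed with earlier results of these data known, so no test was run. Shares have Clopper-Pearson 95% intervals for counting error only. The scripts were tested on simulated data. Alternatives were other peak sets, each replicate alone, stricter peaks, and other gene, promoter and motif windows.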

Additional observations from a re-analysis of the deposited data

How the results depend on the processing

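The count of members with a peak stayed between 4 and 6 of 10 under all 9 alternatives tried. With a single replicate's own list, the peaks at the members numbered 6 to 7 in place of 11, the members with a summit within 500 bp of an own TSS 1 with either list in place of 3, the pathway genes with one 5 with either list in place of 8, and the intron share was 71.43 to 83.33% in place of 54.55%. With peaks in both own lists these values were 5, 1, 5 and 80%, and the median signal was 167 in place of 89.03. With peaks at or above the median signal of all peaks they were 7, 1, 5 and 85.71%, and the median signal was 165.5. The optimal set gave a median signal of 119.3. Pathway genes with a peak fell from 28 to 18 with 2 kb flanks and to 7 with the gene body alone. Shares of all protein-coding genes were not taken for these windows, nor for own TSS in the other peak sets. The intron share of all peaks was likewise not taken for the single lists or the stricter sets. The members' intron shares there rest on 5 to 7 peaks and have no background beside them. Peaks with a searched word rose from 1 to 5 with 100 bp on each side, and neither count has a share of all peaks beside it. The cause of these changes was not tested beyond what smaller sets and windows give by construction. No paired analysis was possible because there is 1 group only.

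The main limits are that unknown depth leaves absence at Dl, Ser, fng, Su(H) and H unmeasured below the threshold, that signals have no stated unit, that replicates number 2, and that no input or control track was analysed here.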

Other observations

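The gene of the tagged protein itself, CG5953 (2L, 16508078 to 16532877, minus strand), held 4 conservative peaks in the gene or within 5 kb, the highest with a signal of 218. Replicate 1's own list held 2 peaks there, up to 142, and replicate 2's own list 2, up to 81.0.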
